A study of Drosophila melanogaster with 10 samples.

Results

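The DNA replication genes described here were PCNA, Mcm2, Mcm3, dpa, Mcm5, Mcm6, Mcm7, RnrL, RnrS and CycE of Drosophila melanogaster. They are 10 genes, taken by their FlyBase symbols, of the 17735 gene identifiers in the count files. All 10 were found in the files, and all 10 passed the filter on low counts that kept 10585 genes for testing. With libraries scaled by TMM, which assumes that most genes do not differ, the replication genes varied little across the 5 genotypes. PCNA was lower in the Su(Hw) double mutant than in wild type or the CTCF mutant, Mcm3 was lower in both double mutants than in the CTCF mutant, and CycE was lower in the triple mutant than in wild type or either double mutant. Each of these calls was lost when some single library was left out. The values of PCNA and Mcm3 against the CTCF mutant turned to higher when library totals were used in place of TMM. The other 7 genes passed no test.

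DNA is copied once in each cell cycle. Cyclin E, the product of CycE, is the partner of the kinase Cdk2 and drives cells from G1 into S phase. Mcm2, Mcm3, Mcm5, Mcm6, Mcm7 and the Mcm4 protein, which is encoded by dpa (disc proliferation abnormal), form the ring-shaped helicase that is loaded at replication origins and unwinds the DNA. PCNA is the sliding clamp that holds polymerases on the template. RnrL and RnrS encode the large and the small subunit of ribonucleotide reductase, which makes deoxyribonucleotides. Genes of this kind are classic targets of the transcription factor E2F and Dp in flies. In a third-instar larva, imaginal discs and the nervous system divide by mitosis, while most larval tissues have grown through endocycles, in which DNA is copied without division and Cyclin E is used again and again. A whole-larva RNA sample reads all of these together, and fewer cells of a type cannot be told apart from less RNA per cell.

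Whole third-instar larvae of the strain y1w1118, raised at 25 °C, were sequenced to compare 5 genotypes with 2 libraries each. RNA was taken from 100 mg of larvae, and mRNA was selected with oligo(dT) beads. The genotypes were wild type (dCTCFwt), the CTCF mutant (dCTCFdeltaCP), the Su(Hw) double mutant (dCTCFdeltaCP with SuHwdelta114), the Pita double mutant (dCTCFdeltaCP with PitadeltaCP1) and the triple mutant with all of these alleles. Libraries are named by genotype and number, such as CTCF 1, Su(Hw) double 1 and triple 1, and the figures label the double mutants CTCF Su(Hw) and CTCF Pita. The series title gives the question as cooperation of architectural zinc-finger proteins in bringing CP190 to regulatory elements. Every genotype other than wild type carried the CTCF mutation, so the Su(Hw) and Pita mutations were each seen on that background alone. The labels state no sex, batch or pairing, and do not say whether the libraries of a genotype came from separate larval cultures. The p-values therefore measure the spread between libraries, which may be technical.

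Libraries held 18856997 to 24391317 reads, of which 25.6% to 39.8% were assigned to genes. The share of mitochondrially encoded transcripts was 34.6% and 24.2% of assigned reads in the CTCF mutant, against 8.67% to 18.7% in the other 8 libraries. Levels are given in CPM, reads scaled to library size with TMM factors, on which 1 read stands for 0.0927 to 0.289 CPM. As a check of the labels, su(Hw) mRNA stood at 386 to 571 CPM in the 4 libraries with its mutation and at 20.7 to 26.3 CPM elsewhere, and pita mRNA at 152 to 218 CPM against 17.1 to 31.5 CPM. CTCF mRNA was 13.9 and 14.4 CPM in wild type, 5.56 and 8.10 CPM in the CTCF mutant, 11.1 ± 0.0788 CPM (mean ± SD, n = 2) in the Su(Hw) double mutant and 18.1 to 26.5 CPM in the Pita double and triple mutants. The libraries of the Su(Hw) double mutant differed from each other by little more than counting error (chi-square per degree of freedom of 1.86 over genes with at least 20 reads, against 17.7 to 74.6 in the other genotypes), and results that use them were also computed with their reads summed into 1 library.

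The way reads were counted mattered for 1 of the 10 genes. Mcm7 (FBgn0020633, chromosome 3L, 8891596 to 8894310, plus strand, dm6 coordinates) shares 2003 of its 2451 exon bases, or 81.7%, with the antisense RNA gene asRNA:CR45871 on the opposite strand (8891556 to 8893800). The deposited unstranded column leaves out reads that fall on 2 genes. It gave Mcm7 10 to 25 reads per library and 164 in all, which is 1.18 to 4.63 CPM. The libraries carry no strand information, since 50.1% to 50.3% of reads fell on the first strand setting, so the sum of both strand columns counts each such read for Mcm7 and again for the antisense gene. That sum was 95 to 208 reads per library for Mcm7 and 1546 in all. The unstranded column therefore kept 6.63% to 16.3% of the reads over Mcm7 in a library. The antisense gene itself had 0 unstranded reads in all 10 libraries and 85 to 193 reads in the sum. Which of the 2 RNAs the shared reads came from cannot be told apart, so every Mcm7 value is uncertain, and the sum is an upper limit for its reads.

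For the other 9 replication genes the sum was 1.00 to 1.06 times the unstranded count. The largest of these ratios belonged to CycE (FBgn0010382), which shares 150 exon bases with asRNA:CR44866 and 98 with lncRNA:CR44974, and to Mcm3 (FBgn0284442), which shares 64 with CG3309. Over all 9844 genes with at least 100 reads the median ratio was 1.00, and 364 genes (3.70%) had a ratio above 2. Fewer than 20% of exon bases were unshared in 18 of 10279 protein-coding genes tested (0.175%), Mcm7 among them. Both shares leave out genes with few or no unstranded reads, which shared exons can bring about, so they may be too low for all genes. Another 2 replication genes from the wider lists used below had 0 unstranded reads. dUTPase, whose enzyme keeps uracil out of DNA, has 824 exon bases, 0 of them unshared, and it had 2359 reads in the sum of the strand columns. Orc3, an origin recognition subunit, has 0 unshared exon bases of 3315 and had 0 reads under either count, and the part of the counting rule in that 0 was not tested. Both were singled out after their values were seen.

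**Figure D1:**
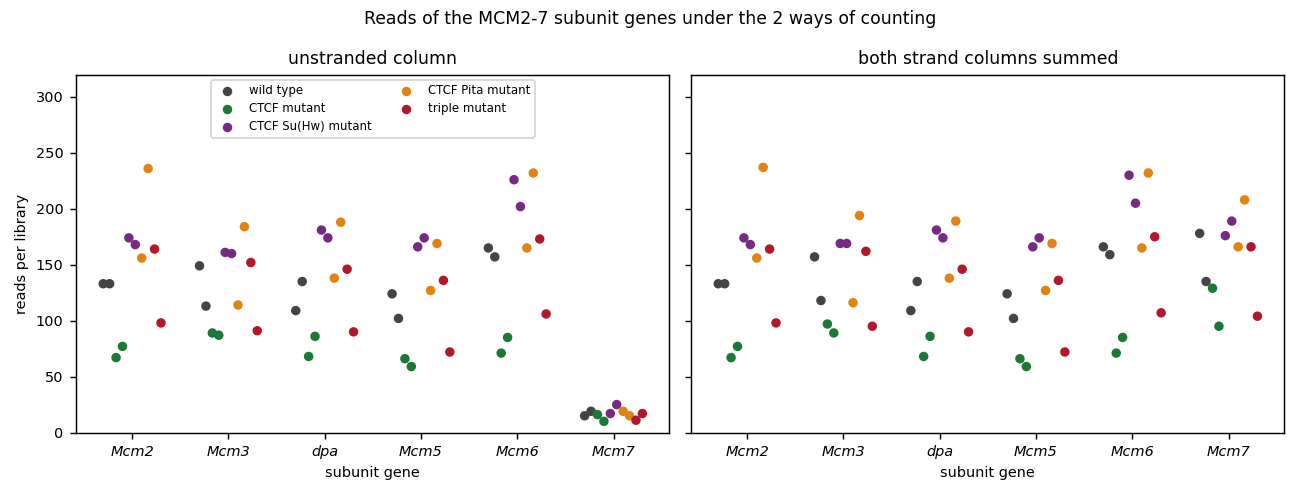
Reads per library of the 6 helicase subunit genes in the unstranded column (left) and in the sum of both strand columns (right), 1 point per library, coloured by genotype. Mcm7 has 10 to 25 unstranded reads per library and 95 to 208 in the sum, where it lies among the other 5 subunit genes. The heights also follow library depth and are not scaled.

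Levels between genes were compared per length, as CPM per kb of exon from the summed strand columns, with all annotated exons of a gene joined. PCNA stood highest at 26.9 ± 5.16 CPM per kb (mean ± SD over 10 libraries), followed by RnrS at 24.0 ± 2.51 and RnrL at 11.3 ± 1.26. PCNA and RnrS do not differ beyond their spread over the 10 libraries. Within a library, PCNA lay below RnrS in both Su(Hw) double mutant libraries and in triple 1, and above it in all others. The 6 helicase genes lay close together below them. Mcm7, as an upper limit, was at 8.61 ± 2.33 CPM per kb, Mcm6 at 7.33 ± 0.858, Mcm3 at 6.69 ± 1.47, Mcm2 at 6.25 ± 0.726, Mcm5 at 6.25 ± 0.722 and dpa at 5.58 ± 0.581. Neighbours in this order differ by less than their spread, and within a library the highest helicase gene was 1.30 to 1.68 times the lowest when Mcm7 is left out, or 1.36 to 2.38 times with its upper limit. CycE was lowest at 2.20 ± 0.517 CPM per kb. Its 6 annotated transcripts differ in exons, so its joined length of 5047 bases may be longer than the RNA present and its level per length too low.

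Ratios between genes of 1 library do not depend on how libraries are scaled. RnrS was 1.73 to 2.56 times RnrL per length in the 10 libraries, with group means from 1.88 in the Su(Hw) double mutant to 2.30 in wild type. PCNA was 3.45 to 4.89 times the mean of the 5 helicase genes other than Mcm7, with its lowest group mean in the Su(Hw) double mutant, 3.66 against 4.55 in wild type. The ratio of CycE to the same mean ran from 0.186 to 0.456. It was 0.456 and 0.417 in the Pita double mutant and 0.396 and 0.445 in the Su(Hw) double mutant, and 0.292 and 0.186 in the triple mutant. The double mutants lay above both triple mutant libraries in this ratio. Wild type (0.299 and 0.385) lay between them, and the CTCF mutant (0.283 and 0.294) overlapped the triple mutant.

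**Figure D2:**
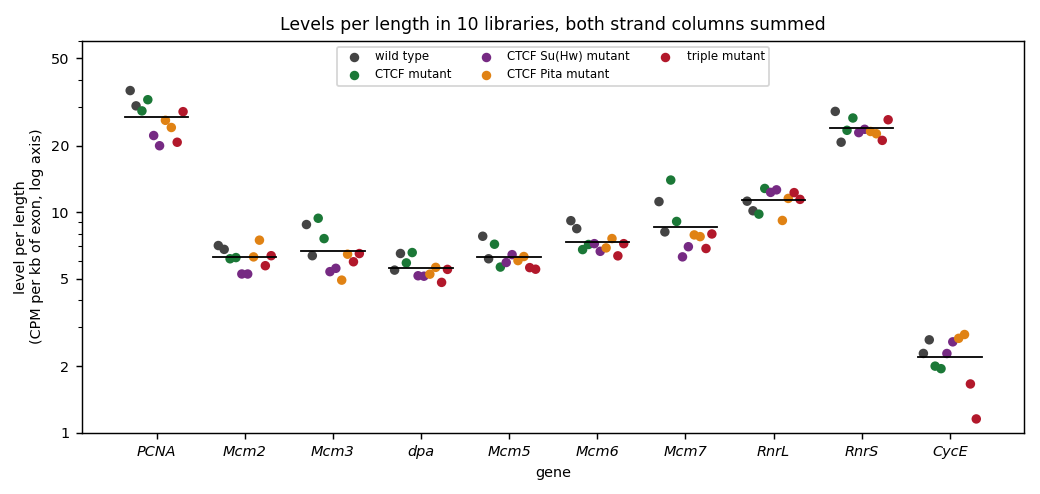
Level per length (CPM per kb of exon, log axis) of each gene in the 10 libraries, from both strand columns summed; points are libraries coloured by genotype and black bars are means. PCNA and RnrS lie highest, the 6 helicase genes lie between 5.58 and 8.61 on average, and CycE lies lowest at 2.20.

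In gene structure, 9 of the 10 genes have spans of ordinary size. Their spans run from 1130 bases for PCNA (FBgn0005655, 2R, 20261754 to 20262883, minus strand) to 3444 for dpa (FBgn0015929, 2R, 7496702 to 7500145, minus strand), and introns make up 0% of the span in Mcm6 to 29.2% in RnrS. Over protein-coding genes tested the median span was 2602 bases and the median intron share 16.6%. Among these genes only PCNA and RnrS lay below that span, and only RnrS lay above that intron share. CycE is the exception, with a span of 20570 bases (2L, 15727581 to 15748150, minus strand) of which 75.5% is intron. Several helicase genes start back to back with another gene on the opposite strand, and how often other genes do so was not counted. The starts of dpa and didum are 2 bases apart, those of Mcm5 and Art1 298, those of Mcm6 and CG3198 414, and those of Mcm2 and RPA1 519. RPA1 encodes a subunit of the protein that coats single-stranded DNA at the fork, so Mcm2 and RPA1 are a pair of replication genes with a shared upstream region.

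The calls differed within that pair. RPA1 stood at 60.5 and 64.9 CPM in the triple mutant and at 35.7 and 38.0 CPM in the Su(Hw) double mutant, with no overlap, and rose by 0.77 on the log2 scale between them (adjusted p = 0.00303 with edgeR). Mcm2 differed by 0.20 in the same comparison (95% interval -0.14 to 0.54). The RPA1 call was lost without Su(Hw) double 2 (adjusted p = 0.0667) and when libraries were scaled by their totals (0.43, adjusted p = 0.186). The difference between the neighbours was not tested.

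All comparisons were made with edgeR's quasi-likelihood test in 1 model of the 10 libraries, with Benjamini-Hochberg adjustment over all 10585 genes and a call at an adjusted p of 0.05. An exact permutation test of 2 libraries against 2 cannot go below 0.333, so the calls rest on that model. Comparisons with wild type share its libraries, and those with the CTCF mutant share the libraries of that group. Of the 90 tests of 10 genes in 9 comparisons, 9 were called, and they belonged to PCNA, Mcm3 and CycE. Against wild type, 0 of 10 replication genes were called in the CTCF mutant, where 3.37% of all genes tested were called. In the Su(Hw) double mutant 1 of 10 was called against 33.3% of all genes, in the Pita double mutant 0 of 10 against 37.8%, and in the triple mutant 1 of 10 against 21.2%. For both counts of 0, no replication gene had an unadjusted p under 0.05 (0 of 10), and DESeq2 also called 0.

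Against the CTCF mutant, 2 of 10 were called in the Su(Hw) double mutant, where 41.4% of all genes were called, and 1 of 10 in the Pita double mutant, where 44.1% were. The triple mutant differed in 1 of 10 genes from the Pita double mutant (16.8% of all genes) and in 1 of 10 from the Su(Hw) double mutant (22.6%). The interaction asks whether both mutations together change a gene by more or less than their separate effects added up, on the CTCF background. It was called for 2 of 10 replication genes and for 45.3% of all genes. With TMM scaling, the share called among the replication genes lay below that over all genes in each of the 9 comparisons. With library totals it lay above that share in both double mutants against the CTCF mutant and in the interaction. With 10 genes a single call makes 10%, and the difference between the shares was not tested.

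The fold changes were small, and with TMM scaling most were below 0. The median log2 fold change of the 10 genes against wild type was -0.02 in the CTCF mutant, -0.29 in the Su(Hw) double mutant, -0.16 in the Pita double mutant and -0.30 in the triple mutant, where the medians over all genes lay between -0.02 and 0.00. The value was below 0 for 5, 9, 9 and 9 of the 10 genes. With library totals the medians of the 10 genes were -0.58, 0.20, 0.33 and -0.16, so that both double mutants turn, beside medians over all genes of -0.59, 0.48, 0.48 and 0.14. These comparisons share the wild type libraries, and the genes share theirs, so the counts are not independent. Outside Mcm7, the largest uncalled difference was 0.53 on the log2 scale. The 95% intervals of the fold changes between genotypes reached 0.33 to 0.49 to either side for these 9 genes, so differences smaller than that could not be detected with these libraries. Some larger ones were not called either, since a call needed an adjusted p under 0.05. CycE differed by 0.52 between the Pita double and the CTCF mutant, with an adjusted p of 0.0692 with edgeR.

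**Figure D3:**
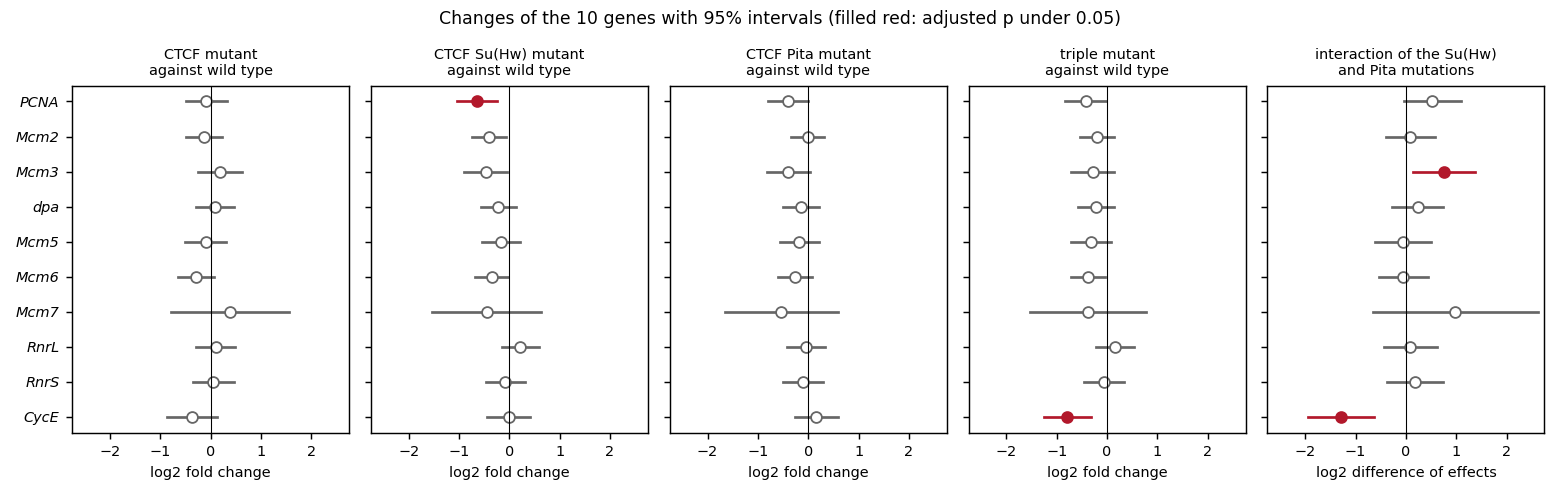
Log2 fold change (points) and its 95% interval (lines) of each gene against wild type in the 4 mutant genotypes, and the interaction between Su(Hw) and Pita (right), from edgeR with TMM scaling. Filled red points passed an adjusted p of 0.05. These are PCNA in the Su(Hw) double mutant (-0.64), CycE in the triple mutant (-0.79), and Mcm3 (0.76) and CycE (-1.29) in the interaction. With scaling by library totals the Mcm3 interaction turns to -0.67, while the median of all genes moves by -1.40 and stays below it.

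The scaling matters for direction. Where libraries were scaled by their totals in place of TMM, the median of all genes moved by -0.58 on the log2 scale in the CTCF mutant against wild type, by 0.48, 0.49 and 0.14 in the Su(Hw) double, Pita double and triple mutants, and by 1.06 in both comparisons with the CTCF mutant. The interaction moved by -1.40. The high mitochondrial share of the CTCF mutant libraries stood beside this shift, and its part was not tested. Differences are therefore also given relative to the median of all genes, which the scaling hardly touches. Levels in CPM, and the order of libraries in them, are with TMM throughout.

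PCNA, the clamp, stood at 40.5 and 34.5 CPM in wild type and at 33.3 and 37.4 CPM in the CTCF mutant. It was 25.3 and 22.7 CPM in the Su(Hw) double mutant, 29.8 and 27.3 CPM in the Pita double mutant and 23.5 and 32.8 CPM in the triple mutant. Every library with a Su(Hw) or Pita mutation lay below every library without one, and the triple mutant libraries were far apart. PCNA fell by 0.64 on the log2 scale in the Su(Hw) double mutant against wild type (SE 0.18, 95% interval -1.04 to -0.24, adjusted p = 0.0199 with edgeR; 24.0 ± 1.85 against 37.5 ± 4.28 CPM, mean ± SD, n = 2). Against the CTCF mutant it fell by 0.56 (SE 0.19, adjusted p = 0.0334 with edgeR). In the Pita double mutant (-0.40, interval -0.79 to 0.00, adjusted p = 0.106 with edgeR) and the triple mutant (-0.43, interval -0.83 to -0.02, adjusted p = 0.124) the values against wild type missed the threshold.

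Both PCNA calls depended on single libraries. The call against wild type was lost without wild type 1 (adjusted p = 0.145 with edgeR), Su(Hw) double 1 (0.0796) or Su(Hw) double 2 (0.151), and with the Su(Hw) double mutant libraries summed (0.101). The call against the CTCF mutant was lost without CTCF 1 (0.0581), CTCF 2 (0.152), Su(Hw) double 1 (0.0890) or Su(Hw) double 2 (0.182), with these libraries summed (0.119) and with DESeq2 (0.0767). With library totals, PCNA differed by -0.15 from wild type and by 0.50 from the CTCF mutant, which is the other direction. Relative to the median of all genes, the latter difference was -0.62 under both scalings, and the former -0.64 with TMM and -0.63 with library totals.

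Among the helicase genes, Mcm3 was the one that was called. Its levels were 24.3 and 17.7 CPM in wild type, 25.8 and 22.0 CPM in the CTCF mutant, 14.9 and 15.3 CPM in the Su(Hw) double mutant, 14.1 and 17.7 CPM in the Pita double mutant and 16.3 and 18.3 CPM in the triple mutant. The CTCF mutant libraries lay above all libraries with a further mutation, while wild type 2 lay among the latter. Against the CTCF mutant, Mcm3 fell by 0.66 on the log2 scale in the Su(Hw) double mutant (SE 0.20, adjusted p = 0.0221 with edgeR) and by 0.57 in the Pita double mutant (SE 0.20, adjusted p = 0.0367). With library totals both turned upward, to 0.42 and 0.50, while relative to the median of all genes they were -0.70 and -0.62 under that scaling and -0.71 and -0.64 with TMM.

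The interaction for Mcm3 was 0.76 (SE 0.28, adjusted p = 0.0439 with edgeR), and -0.67 with library totals. It lay above the median of all genes under both scalings, as that median moved by -1.40 between them. Each added mutation alone went with a lower level, and the triple mutant was no lower than the double mutants. Against wild type, the Mcm3 differences were -0.47 and -0.39 in the double mutants and -0.29 in the triple mutant, none called. The call in the Su(Hw) double mutant was lost without CTCF 1 (adjusted p = 0.113), Su(Hw) double 1 (0.103) or Su(Hw) double 2 (0.0915). That in the Pita double mutant was lost without CTCF 1 (0.155), CTCF 2 (0.0586), either Su(Hw) double mutant library (0.0558 each) or Pita double 1 (0.159). That of the interaction was lost without CTCF 1 (0.117), CTCF 2 (0.0525), Su(Hw) double 1 (0.110), Su(Hw) double 2 (0.0971), Pita double 1 (0.112) or triple 2 (0.0896). All 3 calls were also lost with DESeq2 (0.0645, 0.118 and 0.139) and with the Su(Hw) double mutant libraries summed (0.0876, 0.0568 and 0.0968).

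The other helicase genes were steadier. Mcm6 stood at 27.0 and 24.6 CPM in wild type and at 18.5 to 22.4 CPM in all 8 mutant libraries, so that the wild type libraries lay above every mutant library. Its log2 differences from wild type were -0.29, -0.36, -0.27 and -0.38 in the CTCF, Su(Hw) double, Pita double and triple mutants, with adjusted p from 0.0914 to 0.357 with edgeR, so none was called. Mcm2 was 21.7 and 20.8 CPM in wild type, 19.4 and 19.5 CPM in the CTCF mutant, 16.1 in both libraries of the Su(Hw) double mutant, 19.3 and 22.8 CPM in the Pita double mutant and 17.6 and 19.7 CPM in the triple mutant. It was lowest in the Su(Hw) double mutant, where its difference from wild type was -0.40 (interval -0.74 to -0.06, adjusted p = 0.0640 with edgeR).

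The levels of dpa ran from 15.6 to 21.7 CPM and those of Mcm5 from 14.5 to 20.3 CPM over the 10 libraries. For dpa the largest difference between genotypes was -0.31 between the Su(Hw) double and the CTCF mutant, and for Mcm5 it was -0.32 between the triple mutant and wild type. Neither was called. Mcm7 was not called from unstranded counts, where its intervals reached past 1 on the log2 scale. With both strand columns summed it stood at 27.4 and 19.9 CPM in wild type, 34.3 and 22.3 CPM in the CTCF mutant, 15.4 and 17.1 CPM in the Su(Hw) double mutant, 19.3 and 19.0 CPM in the Pita double mutant and 16.8 and 19.5 CPM in the triple mutant. The CTCF mutant lay highest, as for Mcm3. On that count, added after the overlap was seen, Mcm7 differed between the Su(Hw) double and the CTCF mutant by -0.79 (SE 0.22, adjusted p = 0.0144 with edgeR), and in no other comparison.

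The reductase genes passed no test. RnrL stood at 30.7 and 27.7 CPM in wild type, 27.5 and 35.1 CPM in the CTCF mutant, 33.6 and 34.1 CPM in the Su(Hw) double mutant, 25.2 and 31.4 CPM in the Pita double mutant and 33.5 and 31.6 CPM in the triple mutant. RnrS stood at 48.5 and 35.1 CPM in wild type, 40.5 and 46.0 CPM in the CTCF mutant, 38.8 and 40.1 CPM in the Su(Hw) double mutant, 39.4 and 38.2 CPM in the Pita double mutant and 35.7 and 44.8 CPM in the triple mutant. The wild type libraries span the RnrS range of most other genotypes. Against wild type the differences of RnrL lay between -0.04 and 0.21 and those of RnrS between -0.11 and 0.05, with intervals that reached from -0.50 to 0.58.

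CycE, the G1/S cyclin gene, had the widest range outside Mcm7. It stood at 11.6 and 13.5 CPM in wild type, 9.55 and 9.86 CPM in the CTCF mutant, 11.5 and 13.3 CPM in the Su(Hw) double mutant, 13.6 and 14.3 CPM in the Pita double mutant and 8.45 and 5.63 CPM in the triple mutant. Both triple mutant libraries lay below all 8 others, and triple 2 rests on 28 reads. CycE fell in the triple mutant by 0.79 on the log2 scale against wild type (SE 0.21, adjusted p = 0.0218 with edgeR; 7.04 ± 2.00 against 12.5 ± 1.32 CPM, mean ± SD, n = 2). It fell by 0.94 against the Pita double mutant (SE 0.20, adjusted p = 0.0133) and by 0.77 against the Su(Hw) double mutant (SE 0.20, adjusted p = 0.0206). These 3 comparisons share the triple mutant libraries.

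The CycE interaction was -1.29 (SE 0.30, interval -1.94 to -0.64, adjusted p = 0.00527 with edgeR). Added to the CTCF mutation singly, each mutation went with a higher value of CycE that was not called (0.35 for Su(Hw), adjusted p = 0.208, and 0.52 for Pita, adjusted p = 0.0692), and together with a lower level. The interaction was called under each alternative run, with -1.64 to -1.06 and adjusted p up to 0.0295 on leaving out single libraries, adjusted p = 0.0185 with DESeq2, and -2.68 with library totals. Relative to the median of all genes it was -1.25 with TMM and -1.23 with library totals. The calls of pairs of genotypes were less steady. That against wild type was lost without wild type 1 (adjusted p = 0.0503), wild type 2 (0.121) or triple 2 (0.0696), with DESeq2 (0.101) and with library totals (-0.63, 0.201). That against the Pita double mutant was lost without Pita double 2 (0.0505) or triple 2 (0.0615), and that against the Su(Hw) double mutant without Su(Hw) double 1 (0.0718), Su(Hw) double 2 (0.161) or triple 2 (0.0957), with the libraries of that mutant summed (0.0950) and with DESeq2 (0.0765).

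**Figure D4:**
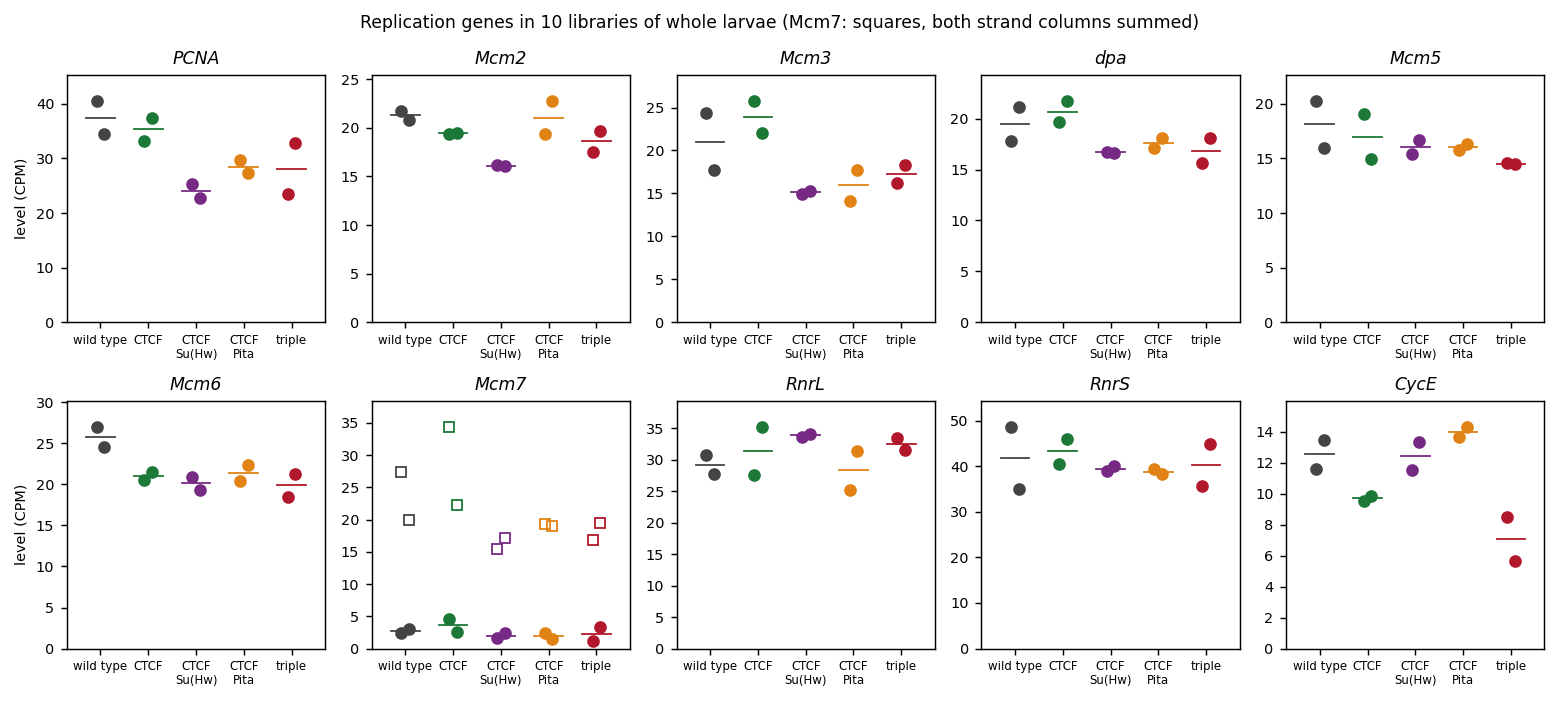
Level in CPM (TMM scaling, unstranded counts) of the 10 genes in every library (points) with the mean of each genotype (lines); open squares in the Mcm7 panel are both strand columns summed. PCNA lies at 22.7 to 32.8 CPM in the 6 libraries with a Su(Hw) or Pita mutation and at 33.3 to 40.5 CPM in the other 4. CycE is lowest in the triple mutant, at 8.45 and 5.63 CPM.

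Variation over all libraries was small for 6 of the genes. The SD of log2 CPM over the 10 libraries was 0.15 to 0.16 for dpa, RnrS, RnrL, Mcm6, Mcm5 and Mcm2, where 3.66% to 5.52% of named genes with at least 8 CPM had a smaller one. It was 0.28 for PCNA, 0.29 for Mcm3 and 0.39 for CycE, and 0.35 for the median gene. The 0.49 of Mcm7 comes from 10 to 25 reads a library. The mean profile of the 10 genes, centred per gene on the log2 scale, ran from 0.20 in wild type 1 to -0.24 in triple 1.

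Likeness to that profile was measured as the root mean square difference of centred log2 CPM over the 10 libraries, among 4521 named genes with at least 8 CPM. Of the members, dpa (0.11), Mcm6 (0.11), Mcm5 (0.12), Mcm2 (0.14) and RnrS (0.14) lay closest, and CycE (0.42) and Mcm7 (0.43) farther than the median gene (0.36). Each member was compared with the mean profile of the other 9 members, so its own values did not enter. The closest genes outside the members were Vha16-1 (0.05), CD98hc (0.08), Atxn7 (0.08), nesd (0.08), Stt3A (0.09) and, each at 0.10, omd, polybromo, hyx, Coa7 and lwr. Vha16-1 encodes a subunit of the vacuolar proton pump, Stt3A the catalytic subunit of oligosaccharyl transferase and lwr the SUMO-conjugating enzyme. None of these 10 is in a replication list. Of the 4521 genes, 2844 lay within the distance of CycE, the farthest of the 9 members other than Mcm7. That count rests on CycE alone. For RnrL (0.25), the next farthest, 21.1% of the genes lay closer, and for dpa 0.310% did.

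The rest of the replication machinery was read from 5 lists of origin licensing genes, helicase partners, polymerases, fork factors and nucleotide supply. Of 42 listed genes 39 were matched in the files and 37 were tested. Against wild type, 0 of 37 were called in the CTCF mutant (3 at an unadjusted p under 0.05 with edgeR, and 0 with DESeq2). In the Su(Hw) double mutant 1 rose and 3 fell, in the Pita double mutant 0 rose and 2 fell, and in the triple mutant 1 rose and 4 fell, where 33.3%, 37.8% and 21.2% of all genes were called. With library totals these counts became 3 higher and 1 lower, 2 higher and 1 lower, and 0. The median log2 fold changes were 0.00, -0.24, -0.13 and -0.35, and with library totals -0.59, 0.25, 0.36 and -0.18. Of these genes 33 of 37 were below 0 in the triple mutant, and 26 of 37 in each double mutant. Summed over the 39 genes the level was 348 to 357 CPM in wild type and the CTCF mutant and 296 to 322 CPM in the 6 libraries with a further mutation, with no overlap. The 10 genes of the main set summed to 214 to 245 CPM and 185 to 210 CPM in the same libraries, and likewise did not overlap.

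Among fork factors, Claspin, which links the fork to the replication checkpoint kinase, and Caf1-180, the large subunit of the histone chaperone that packs newly made DNA, had the interactions with the largest size. Claspin stood at 4.41 and 5.48 CPM in wild type, 1.74 and 4.04 CPM in the CTCF mutant, 10.5 and 11.6 CPM in the Su(Hw) double mutant, 5.95 and 8.00 CPM in the Pita double mutant and 2.61 and 4.60 CPM in the triple mutant. It was highest in the Su(Hw) double mutant, where it rose by 1.90 against the CTCF mutant (adjusted p = 0.00228 with edgeR). Its interaction was -2.78 (SE 0.49, adjusted p = 0.00135) and that of Caf1-180 was -2.32 (SE 0.49, adjusted p = 0.00358). Both interactions kept sign and call under each alternative run. CycE shares this pattern of sign, with a higher value in each double mutant than in the CTCF mutant and than in the triple mutant, while PCNA and Mcm3 do not.

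In the list of 11 G1/S control genes, E2f1, the activating E2F of flies, behaved in the same way. It stood at 54.1 and 63.6 CPM in wild type, 41.7 and 49.0 CPM in the CTCF mutant, 88.4 and 89.2 CPM in the Su(Hw) double mutant, 87.8 and 93.9 CPM in the Pita double mutant and 41.4 and 68.1 CPM in the triple mutant. The double mutants lay above all other libraries. Against the CTCF mutant E2f1 rose by 0.97 in the Su(Hw) double mutant (adjusted p = 0.00467 with edgeR) and by 1.00 in the Pita double mutant (adjusted p = 0.00362), and its interaction was -1.69 (SE 0.30, adjusted p = 0.00135). Without CTCF 1 the first 2 calls were lost (adjusted p = 0.0661 and 0.0544), and the interaction was kept under each alternative run.

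Mitotic genes were read from a list of 28 G2/M genes, such as cyclins, spindle motors and condensin subunits. Against wild type 1 rose in the CTCF mutant, 2 rose and 1 fell in the Su(Hw) double mutant, 3 rose in the Pita double mutant and 4 fell in the triple mutant, with medians of -0.05, 0.07, 0.23 and -0.34. Of all genes 3.37%, 33.3%, 37.8% and 21.2% were called in these comparisons. DESeq2 called 1 in each, and library totals gave 9 higher in the Su(Hw) double mutant, 14 higher in the Pita double mutant and 0 in the triple mutant. Leaving out a library gave 0 to 5 higher in the Pita double mutant and 0 to 6 lower in the triple mutant. The triple mutant was called lower in 8 genes than the Pita double mutant (16.8% of all genes called, 1 to 9 on leaving out a library, 4 with DESeq2) and in 6 than the Su(Hw) double mutant (22.6%, 0 to 9, 2 with DESeq2). The interaction was called in 9 of 28, all negative, a share below the 45.3% of all genes. Leaving out a library gave 3 to 9 lower, DESeq2 called 6 and library totals gave 26 lower. The median interaction was -0.62, against 0.14 for the 10 replication genes and -0.05 over all genes, and -2.04 with library totals. Klp61F, a spindle motor of the kinesin family, had an interaction that was kept under each alternative run (-1.43, SE 0.31, adjusted p = 0.00416 with edgeR). Summed over the list, the level was 422 to 444 CPM in wild type and the CTCF mutant, 464 to 507 CPM in the double mutants and 364 and 313 CPM in the triple mutant.

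**Figure D5:**
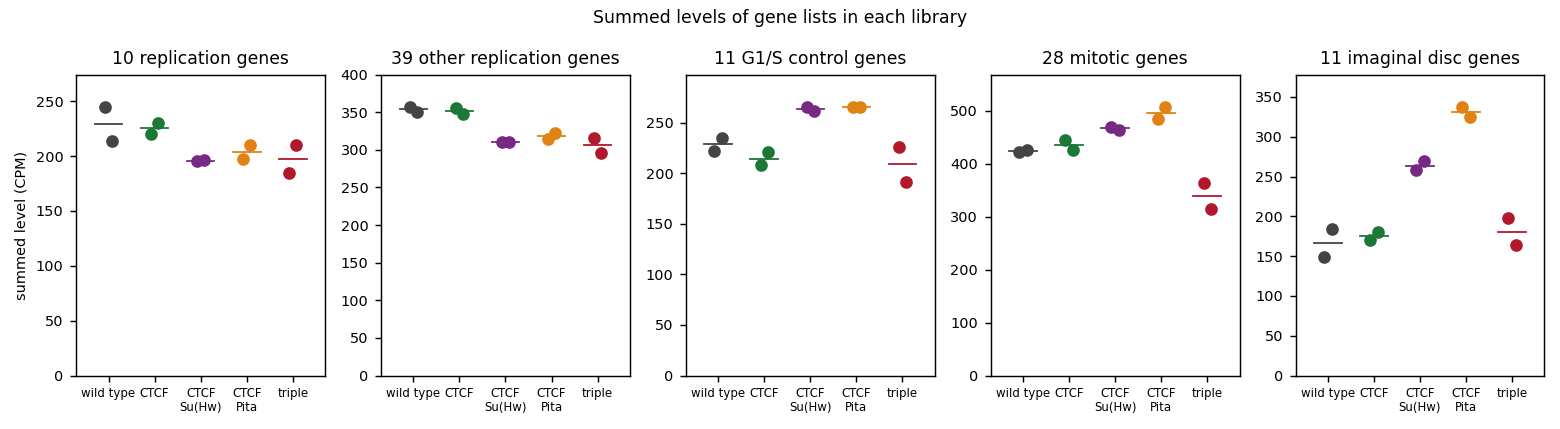
Summed level in CPM (TMM scaling) per library of the 10 replication genes, 39 other replication genes, 11 G1/S control genes, 28 mitotic genes and 11 imaginal disc genes; points are libraries and lines are means of a genotype. Both replication sums are lower in the 6 libraries with a Su(Hw) or Pita mutation, while the mitotic and disc sums are highest in the double mutants. With library totals the direction of both replication lists in the double mutants against the CTCF mutant turns, and the medians of the 10 genes become 0.86 and 0.90. The median of all genes moves by 1.06 in both comparisons. The mitotic and disc medians are above 0 there as well.

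The replication genes were taken as a reading of growing imaginal tissue, which was not tested, so disc markers were set beside them. The list held 11 disc transcription factor genes, and none was at 0 in a library. Their summed level was 148 and 185 CPM in wild type, 170 and 180 CPM in the CTCF mutant, 258 and 270 CPM in the Su(Hw) double mutant, 338 and 325 CPM in the Pita double mutant and 197 and 164 CPM in the triple mutant. Against wild type 2 of 11 rose in the Su(Hw) double mutant and 8 of 11 in the Pita double mutant, and none fell, where 33.3% and 37.8% of all genes were called. These counts were 0 to 3 and 4 to 8 on leaving out a library, 2 and 6 with DESeq2, and 8 and 9 with library totals. In the CTCF mutant and the triple mutant 0 were called (1 each at an unadjusted p under 0.05 with edgeR, and 0 with DESeq2). One of them, hth, a leg and antenna patterning gene, stood at 48.7 and 63.9 CPM in wild type and at 124 and 148 CPM in the Pita double mutant, a rise of 1.27 (adjusted p = 0.00225 with edgeR) that was kept under each alternative.

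With library totals the median differences from wild type in the Su(Hw) and Pita double mutants were 1.01 and 1.37 for the disc markers and 0.20 and 0.33 for the replication genes. The difference between the lists was not tested. The summed level of 6 salivary glue genes, which are switched on late in the third instar, was 247 and 14.4 CPM in wild type, 1259 and 474 CPM in the CTCF mutant, 582 and 612 CPM in the Su(Hw) double mutant, 3110 and 2337 CPM in the Pita double mutant and 566 and 2672 CPM in the triple mutant. Glue levels thus differed between libraries of 1 genotype as well as between genotypes, and the part of larval timing in the levels of the replication genes was not tested. Neuroblast markers summed to 54.1 to 97.3 CPM and germline markers to 8.03 to 16.9 CPM over the 10 libraries, with the highest neuroblast sums in the Pita double mutant. Against wild type, 1, 2, 6 and 5 of the 6 glue genes rose in the CTCF, Su(Hw) double, Pita double and triple mutants. Of all genes 3.37%, 33.3%, 37.8% and 21.2% were called in these comparisons. The same shares stand beside each count against wild type that follows, and no list was tested against them. Of 7 tested Osiris genes, which are switched on as cuticle forms, 0, 6, 5 and 6 fell in the same order. The Osiris sum was 208 CPM in wild type 1, 15.7 CPM in wild type 2 and 3.42 to 13.9 CPM in the mutant libraries. Wild type 1 thus weighs heavily in these falls, and how far the genes passed the filter through wild type was not tested. Of 6 fat body genes 2, 1, 1 and 1 rose and 0, 0, 0 and 2 fell. Against the CTCF mutant, 41.4% and 44.1% of all genes were called in the Su(Hw) and Pita double mutants. Of the fat body genes 3 and 5 fell there, with 1 higher in each. With library totals these became 0 and 1 lower, with 3 and 2 higher. Of 6 hemocyte genes 0, 2, 0 and 0 rose and 0, 1, 3 and 1 fell against wild type, and with library totals 0, 4, 2 and 0 were higher and 2, 1, 1 and 0 lower. Of 8 spermatocyte genes 0, 2, 2 and 2 rose and 0, 1, 0 and 0 fell. Of 7 neuroblast genes 0, 1, 4 and 1 rose and 0, 1, 0 and 1 fell, and 0 of 6 germline genes were called in any mutant (2, 0, 1 and 0 at an unadjusted p under 0.05 with edgeR, and 0 with DESeq2). For the lists with 0 calls in the CTCF mutant, the unadjusted counts with edgeR were 5 Osiris, 1 hemocyte, 0 spermatocyte and 2 neuroblast genes, and DESeq2 called 5 Osiris genes and 0 of the others. The part of these tissues in the levels of the replication genes was not tested.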

How the data were processed

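RNA sequencing of whole larvae was used, with 5 genotypes and 2 libraries each. The authors deposited raw read counts per gene for each library, in a table with an unstranded count column and 2 strand columns. Per the submitters' processing notes, cutadapt, STAR and dm6 were used; the sources used here give no versions and no read filters. The 4 summary lines stayed out of library sizes: 50.9% to 65.5% of reads mapped to several places and 3.68% to 4.43% fell on more than 1 gene. Assigned reads numbered 5670793 to 8220126 per library. Gene positions come from an annotation with dm6 coordinates, in which 17597 of 17735 identifiers were found.

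Unstranded counts were filtered with filterByExpr, which removed 7150 genes, scaled with TMM (factors 0.553 to 1.35) and tested with edgeR 4.0.16 in R 4.3.3 (quasi-likelihood F-test, two-sided, 5 residual degrees of freedom, biological coefficient of variation 15.9%). Each p was adjusted with the Benjamini-Hochberg method over all genes tested, within each of 9 comparisons. Alternatives were RLE factors, library totals, no filter, DESeq2 1.42.0, a replicate block, the Su(Hw) double mutant libraries summed, each library left out, and, added after the data were seen, both strand columns summed. The code was tested on simulated data. Replicate numbers do not pair the libraries: replicate differences of 2 genotypes correlated at -0.149 to 0.153 across genes.

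The replication genes and all gene lists were chosen with earlier results of these data known. Outside the members, genes could be named from each list if they were among the 3 largest called changes of a comparison, with libraries not overlapping and at least 5 CPM in the higher group, or among the 10 closest to the members' profile. Orc1, RPA2 and RPA3 of the lists were not matched, and 1 gene of the lists is not reported here. Spermatocyte, hemocyte, fat body and Osiris lists were tested in the same fit: they summed to 22.6 to 53.3, 205 to 500, 32448 to 76722 and 3.42 to 208 CPM. Sequences are not used here.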

Additional observations from a re-analysis of the deposited data

Results flagged for a closer look

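For 2 of the 10 replication genes, the effect of adding the Su(Hw) mutation differed with the Pita genotype, as tested by the interaction term of edgeR's model over all genes. The same test called 45.3% of all genes, a larger share. For CycE the difference of effects was -1.29 on the log2 scale (SE 0.30, adjusted p = 0.00527), from a difference of 0.35 on the CTCF mutant background, which was not called, to a fall of 0.94 on the Pita double mutant background. For Mcm3 it was 0.76 (SE 0.28, adjusted p = 0.0439), from a fall of 0.66 to a difference of 0.10. The CycE value kept its sign and its call under each alternative run. The Mcm3 value turned to -0.67 with library totals. It stayed above the median of all genes, which moved by -1.40 between the scalings. Its call was also lost with DESeq2 (adjusted p = 0.139), and with edgeR using the replicate block (0.0582) or both strand columns summed (0.0522). Summing the Su(Hw) double mutant libraries, or leaving out any of several single libraries, lost the call too.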

How the results depend on the processing

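TMM and library totals gave opposite directions for many values, since the median of all genes moves by up to -1.40 on the log2 scale between them. With library totals, the count of replication genes called became 1 in the CTCF mutant and 0 in the Su(Hw) double and triple mutants against wild type. It became 7 and 8 in the Su(Hw) and Pita double mutants against the CTCF mutant, all higher, and 8 in the interaction, all lower. Of all 10585 genes, library totals called 7194 (6815 higher) and 7324 (6941 higher) in these double mutants against the CTCF mutant. In the interaction 6801 of all genes were called, 6457 of them lower. The replication genes were not tested against these counts. The reversed values against the CTCF mutant were PCNA 0.50, Mcm2 0.79, Mcm3 0.42, dpa 0.75, Mcm5 0.995, Mcm6 0.999 and RnrS 0.92 in the Su(Hw) double mutant, and PCNA 0.74, Mcm3 0.50, dpa 0.83, Mcm5 0.998, RnrL 0.91 and RnrS 0.90 in the Pita double mutant. In the interaction they were PCNA -0.90, Mcm2 -1.33, Mcm3 -0.67, dpa -1.18, RnrL -1.30 and RnrS -1.24. The cause of the shift was not tested. DESeq2 called 0 in the triple mutant against wild type, 0 in each double mutant against the CTCF mutant, 0 in the triple against the Su(Hw) double mutant and 1 in the interaction. With the Su(Hw) double mutant libraries summed, the count was 0 in that mutant against wild type, 0 in each double mutant against the CTCF mutant, 0 in the triple against the Su(Hw) double mutant and 1 in the interaction. With both strand columns summed it was 1 in the interaction.

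With the replicate block, 1 replication gene was called in the interaction in place of 2, as Mcm3 was lost (adjusted p = 0.0582); the numbers do not pair the libraries, and no other count of calls among the 10 genes moved by more than 1.5 times. Leaving out each library in turn gave 0 to 0 calls in the CTCF mutant, 0 to 2 in the Su(Hw) double mutant, 0 to 1 in the Pita double mutant and 0 to 1 in the triple mutant against wild type. It gave 0 to 2 in each double mutant against the CTCF mutant, 0 to 1 in the triple against each double mutant, and 1 to 3 in the interaction.

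Over all genes, the count for the CTCF mutant against wild type was 357, and 1314 with library totals, 733 with no filter, 143 with the Su(Hw) double mutant libraries summed and 67 to 835 on leaving out a library. That summing gave 1382 for 3520 in the Su(Hw) double mutant against wild type, 2584 for 4385 against the CTCF mutant, and 891 for 1773 and 678 for 2390 in the triple against the Pita and Su(Hw) double mutants. Library totals gave 7194 for 4385 and 7324 for 4664 in the double mutants against the CTCF mutant. Counts with a library left out ran from 1142 to 4107, 1956 to 4563 and 1305 to 2307 against wild type for the Su(Hw) double, Pita double (4001) and triple (2248) mutants, from 2355 to 4870 and 3024 to 5113 against the CTCF mutant, from 639 to 2808 and 573 to 3063 for the triple against the Pita and Su(Hw) double mutants, and from 3346 to 5186 in the interaction (4800). Depth limits Mcm7, with 10 to 25 reads, and CycE, with 28 to 148.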
